A study of Homo sapiens with 2 samples.

Results

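The genes described here are those of serine supply in a human breast cancer line: PHGDH, PSAT1 and PSPH, the enzymes that make serine, and SLC1A4 and SLC1A5, which carry it across the plasma membrane. They were taken by Ensembl gene ID, with symbols paired to the IDs beforehand, and all 5 were among the 18394 genes of the table. The series holds 2 cultures, each measured on 1 Affymetrix array. One is parental MDA-MB-231, a human breast cancer line that lacks oestrogen receptor, and the other is MDA-MB-231(SA), a derivative that is known to colonise bone when injected into mice. No transgene or drug is named in the labels for either line, and both grew in flasks in DMEM with 1000 mg/L glucose, 10% serum and 1% nonessential amino acids, a supplement that usually holds serine. The design compared the expression profiles of the variant and its parent, and the study is known for asking whether serine made by such cells bears on the formation of osteoclasts, the cells that resorb bone.

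Serine is made from 3-phosphoglycerate, an intermediate of glycolysis. PHGDH (phosphoglycerate dehydrogenase) oxidises it in the committed step, PSAT1 (phosphoserine aminotransferase) moves an amino group onto the product from glutamate, and PSPH (phosphoserine phosphatase) removes the phosphate to leave serine. Cells also import serine, and SLC1A4 (ASCT1) and SLC1A5 (ASCT2), a pair of related sodium-dependent exchangers of neutral amino acids, are among the carriers that do so; SLC1A5 is best known for glutamine. Serine feeds glycine, folate-bound carbon units, phospholipids and cysteine, and parental MDA-MB-231 is known as a breast cancer line with little PHGDH protein. ATF4, a transcription factor of the amino acid stress response, is known to act on genes of this pathway.

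The sequences before the start sites of these genes are given here as a description, and any link to the differences below was not tested. They come from RefSeq (GRCh38.p14), in a table of windows of 300 bases that run from 250 bases before to 50 bases after a start. PHGDH and PSAT1 have 1 window each, SLC1A4 has 2 and SLC1A5 has 3, so 4 of the 5 genes matched (all but PSPH). Capitals mark matches, on either strand, to any of 4 motifs. These are TGATGNAA, the core of the composite element bound by ATF4 with C/EBP factors, the E-box CACGTG that MYC and related proteins recognise, the GC box GGGCGG known for binding SP1, and the letters TATAAA of the TATA box. Each line gives the 250 bases before a start, 5′ to 3′ on the gene's strand, with 2 exceptions made for TGATGNAA matches. SLC1A4 also shows the start base, 251 bases in all, and the last line shows 30 bases around a match. Not shown are the windows of the upstream start of SLC1A4, without a match, and of the middle start of SLC1A5, with the E-box.
PHGDH, chr1:119711684-119711933, plus strand: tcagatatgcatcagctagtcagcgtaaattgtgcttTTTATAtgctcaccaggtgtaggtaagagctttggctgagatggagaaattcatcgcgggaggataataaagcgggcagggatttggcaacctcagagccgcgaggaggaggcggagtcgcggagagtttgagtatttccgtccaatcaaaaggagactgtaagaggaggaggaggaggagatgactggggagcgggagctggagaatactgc
PSAT1, chr9:78296875-78297124, plus strand: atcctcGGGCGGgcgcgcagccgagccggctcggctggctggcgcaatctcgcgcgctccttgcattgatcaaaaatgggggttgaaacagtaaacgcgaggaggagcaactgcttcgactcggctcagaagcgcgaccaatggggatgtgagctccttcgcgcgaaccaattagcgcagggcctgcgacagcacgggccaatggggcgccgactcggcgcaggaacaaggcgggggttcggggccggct
SLC1A4, the downstream one of its 2 starts, chr2:64989149-64989399, plus strand: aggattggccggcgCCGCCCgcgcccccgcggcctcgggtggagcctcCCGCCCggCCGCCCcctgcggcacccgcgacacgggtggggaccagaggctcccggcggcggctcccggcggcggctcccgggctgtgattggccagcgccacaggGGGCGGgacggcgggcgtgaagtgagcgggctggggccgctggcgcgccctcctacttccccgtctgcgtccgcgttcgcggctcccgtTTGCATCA
SLC1A5, outermost of its 3 starts, chr19:46788595-46788844, minus strand: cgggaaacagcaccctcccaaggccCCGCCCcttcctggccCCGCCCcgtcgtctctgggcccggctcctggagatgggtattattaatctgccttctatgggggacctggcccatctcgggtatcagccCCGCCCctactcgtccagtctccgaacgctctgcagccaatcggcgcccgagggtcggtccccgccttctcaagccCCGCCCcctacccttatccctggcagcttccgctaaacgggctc
SLC1A5, innermost of its 3 starts, chr19:46784893-46784922, minus strand: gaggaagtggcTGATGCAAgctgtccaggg

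TGATGNAA was found in 2 of the 7 windows of these genes, and it is present in 3.62% of the 35116 windows of the table. The 7 windows come from 4 genes, and windows of the same gene are not independent, so these shares are not compared. TGATGNAA was absent from the 1 window each of PHGDH and PSAT1, and bases outside the windows were not searched. In SLC1A4 it lay on the reverse strand as TTGCATCA and ended on the start base of the downstream start. In SLC1A5 it lay on the forward strand as TGATGCAA, from -97 to -90 relative to the innermost start. The GC box was found in 3 of the 7 windows, with 4 matches each in SLC1A4 (the downstream start) and SLC1A5 (the outermost start) and 1 in PSAT1, and it is present in 45.0% of all windows. The E-box was found once, before the middle start of SLC1A5 (7.26% of all windows hold it), and the TATA box letters once, on the reverse strand in PHGDH (11.5%). No match overlapped another. A match of letters is a description of the window, and factor binding was not measured. The arrays summarise a gene in 1 value, so which of the starts was used in either line was not measured.

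All 5 genes had a higher level in the SA variant than in the parental line, by 2.11-fold to 5.81-fold. Values are the levels that the authors deposited, taken as log2, and a difference is SA minus parental on that scale. Genes that reached 5.62, the median of all values, in at least 1 line were compared, and a gene counted as higher or lower from a 2-fold difference on. With 1 array per line there was no replicate, so no test was possible, no p-value is given, and no difference can be set against the spread between cultures of a line. All 5 genes were compared; all 5 were higher, as were 53.8% of the genes compared, and all 5 passed the 2-fold size upward and 0 downward. Of all 9725 genes compared, 559 (5.75%) passed it upward and 406 (4.17%) downward. The 5 genes were chosen with earlier results of these data known. Their counts are therefore set beside the shares of all genes as a description and not as a test. The median difference of the 5 genes was 1.79, and that of all genes compared was 0.045. At 3-fold or more lay 3 of the 5 (PHGDH, PSAT1 and SLC1A4), against 1.92% of all genes compared, and at 4-fold or more 2 of the 5 (PHGDH and PSAT1), against 1.1%. PHGDH entered these counts through the SA array only, as its parental level lay under the floor. Of the other 4 genes, which reached the floor on both arrays, 4 were at least 2-fold higher, 2 at least 3-fold (PSAT1 and SLC1A4) and 1 at least 4-fold (PSAT1). Of all 8669 genes with the floor reached on both arrays, the shares were 4.13%, 0.854% and 0.392%.

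**Figure D1:**
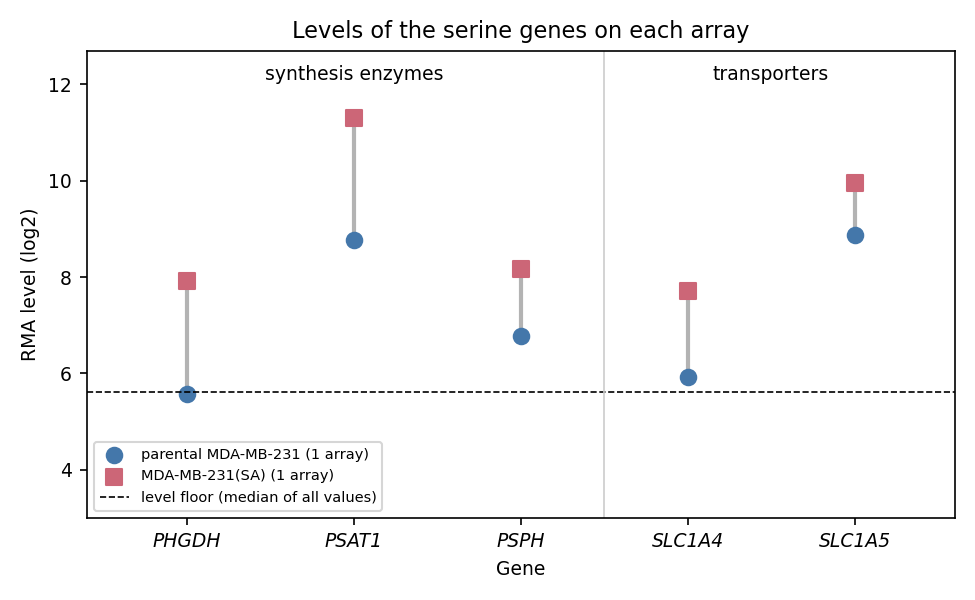
RMA level (log2) of each gene in parental cells (circles) and in the SA variant (squares), joined by a grey line. The dashed line is the level floor of 5.62. All 5 squares lie above their circles, and only the parental value of PHGDH lies below the floor.

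PHGDH (ENSG00000092621_at, chromosome 1), which commits 3-phosphoglycerate to serine, was at 5.58 in the parental line and at 7.93 in the SA variant. The parental value lay 0.038 under the floor, and the SA value well above it. The difference was 2.35, or 5.09-fold. RMA values of dim genes still hold background signal, which can make a fold too small, and its share in this value was not measured. Error in a value from 1 array can also make the fold too large or too small, and it was not measured. Counting PHGDH itself, 66 of the 9725 genes compared (0.679%) had a difference at least as high.

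PSAT1 (ENSG00000135069_at, chromosome 9), the aminotransferase of the second step, was at 8.76 in the parental line and at 11.3 in the SA variant. Both values were far above the floor, where background weighs little. Its measured difference of 2.54 (5.81-fold) ranked 50 among all genes compared. It was above that of PHGDH by only 0.19, and with the parental level of PHGDH under the floor the order of these genes is not established. Genes of like brightness seldom differed this much. When the genes compared were divided by mean level into 5 classes of 1945, PSAT1 belonged to the brightest, where 4.32% were at least 2-fold higher and where 2 genes, PSAT1 included, had a difference this high.

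PSPH (ENSG00000146733_at, chromosome 7), the phosphatase of the last step, was at 6.78 in the parental line and at 8.17 in the SA variant. The difference was 1.39, or 2.61-fold, and both values were above the floor. It was the smallest difference among the 3 enzymes, lower than that of PSAT1 by 1.15 and than that of PHGDH by 0.961. The reference annotation also lists PSPHP1, a pseudogene of PSPH on the same chromosome. Which probes make up the PSPH value was not given in the sources used here, so signal from that copy cannot be told apart from signal of PSPH. Of the genes compared, 257 (2.64%) had a difference at least as high as that of PSPH. In its class by mean level 4.99% of genes were at least 2-fold higher.

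SLC1A4 (ENSG00000115902_at, chromosome 2), the carrier ASCT1 that exchanges serine, alanine, cysteine and threonine, was at 5.93 in the parental line and at 7.71 in the SA variant. The parental value was 0.307 above the floor, and background in it was not measured either. The difference was 1.79 (3.45-fold), and 139 genes compared (1.43%) had one at least as high. Its class by mean level, which also held PHGDH, had 6.32% of genes at least 2-fold higher.

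SLC1A5 (ENSG00000105281_at, chromosome 19), the carrier ASCT2, was at 8.88 in the parental line and at 9.95 in the SA variant. Both values were bright, and the difference of 1.08 (2.11-fold) was the smallest of the 5 genes. It lay just past the 2-fold size, and 474 genes compared (4.87%) had a difference at least as high. Among the 1945 genes of its class, 67 (3.44%) did.

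**Figure D2:**
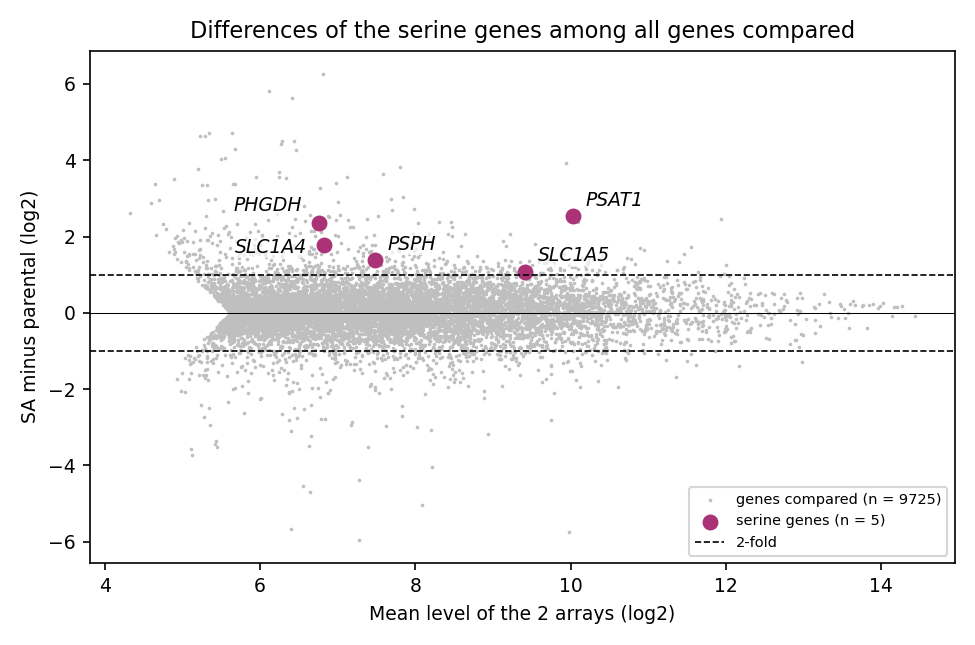
Difference SA minus parental (log2) against the mean level of both arrays (log2) for the 9725 genes compared (grey) and the 5 serine genes (purple). Dashed lines mark 2-fold. All 5 purple points lie above the upper line, with PSAT1 at 2.54 apart from nearly all genes of its brightness. SLC1A5 at 1.08 lies closest to that line, and 4.87% of the genes compared had a difference at least as high.

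In the order of the pathway, the differences were 2.35, 2.54 and 1.39 for the 3 enzymes, with a median of 2.35 (5.09-fold). For the 2 carriers they were 1.79 and 1.08, and the enzyme PSPH lay between them. The 2 groups of genes therefore overlapped. The range over the 5 genes was 1.46. The robust SD of the difference over all genes compared, which is a spread over genes and not over replicates, was 0.509. Whether the steps of the pathway differed unequally was not testable without replicates.

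The differences moved little when the arrays were rescaled, but RMA had already made their distributions alike and left little to move. When the difference was centred on the median of all genes compared, when a trend on level was subtracted and when the columns were quantile normalized to each other, PHGDH stayed between 2.30 and 2.31, PSAT1 between 2.488 and 2.493, PSPH between 1.32 and 1.34, and SLC1A4 at 1.74. SLC1A5 came closest to the 2-fold size, at 1.03 after centring, 1.02 after trend subtraction and 1.05 after quantile normalization. These settings reuse the same arrays, so they bear on scaling and not on differences between cultures.

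**Figure D3:**
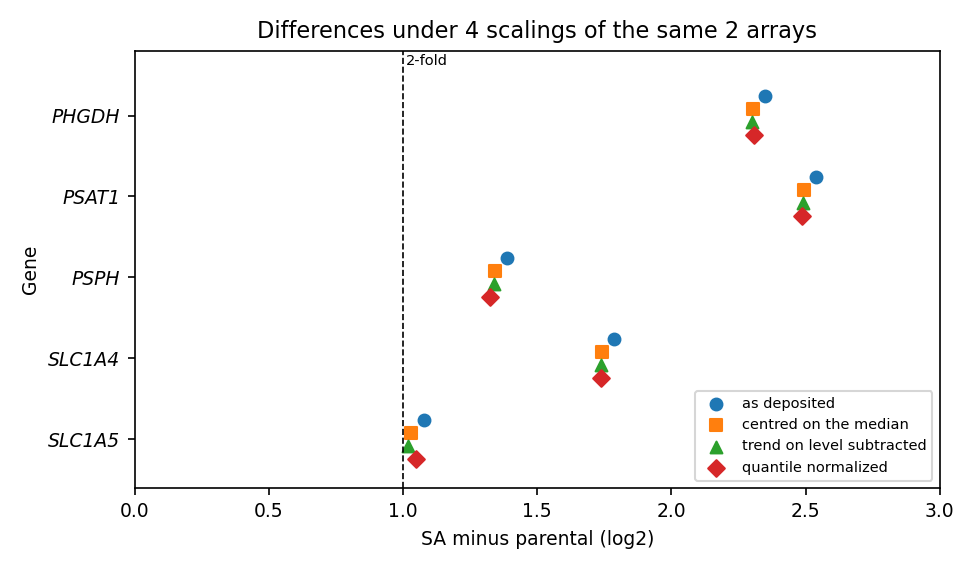
Difference SA minus parental (log2) of each gene as deposited and under 3 other scalings of the same arrays. The dashed line marks 2-fold. Each gene keeps its place in the order, and SLC1A5 (1.02 to 1.08) lies closest to the line.

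Few genes shared the pair of levels of PSAT1. A gene was counted as alike when it lay within 0.25 of the member on both arrays, and 1 other gene of the 18394 did so for PSAT1, 9 for PHGDH, 14 for SLC1A4, 24 for PSPH and 38 for SLC1A5. With 2 arrays such likeness is a match of 2 values only, and it also depends on how many genes have that level. The rows carry no symbols and the gene table used here paired 0 of its genes with Ensembl IDs, so these genes are not named. For the same reason the other carriers of neutral amino acids, the enzymes that use serine, the regulators of the pathway and the markers that would check the line's identity are not analysed here.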

How the data were processed

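Per the labels' protocols, total RNA of 2 cultures was purified on columns and 3 µg were turned into biotinylated cRNA. The deposited values are expression levels, taken here to be on a log2 scale. The authors used RMA, per the submitters' processing notes. RMA corrects background, makes the arrays' distributions alike and summarises the probes of each feature. Its version, the array model and the probe sets were not given in the sources used here. Base 2 was assumed for the logarithm, since this is what RMA writes and the deposited levels lay between 2.50 and 14.5. Precision is limited by there being 1 array per line.

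Differences, counts and classes were computed with Python 3.11.15, pandas 2.3.3 and statsmodels 0.14.6 (lowess span 0.4). The code was also run on simulated data with less spread than these arrays and with shifts larger than the difference of SLC1A5. That run checks the code and not calls near the 2-fold size. The alternatives were 3 scalings, a floor at the 25th or the 75th percentile, on both arrays or left out, and size rules of 1.5-fold and 3-fold. The rule for named genes took the 5 members, genes of pathway and marker lists that a table could pair with IDs (none could be), and for each member up to 2 genes nearest in level (counted, not named). The members, lists and motifs were chosen with earlier results of these data known. A planned comparison of protein sequences was not run.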

Additional observations from a re-analysis of the deposited data

How the results depend on the processing

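All 5 genes stayed at least 2-fold higher under the 3 other scalings, which could move the RMA values only little. Under any alternative run 0 were lower. Leaving out the floor, lowering it to the 25th percentile and the 1.5-fold rule also gave 5, which by construction they had to. The floor at the 75th percentile gave 5, but PHGDH, PSPH and SLC1A4 passed it through the SA array only. With the floor required on both arrays PHGDH was not compared, and the other 4 of 4 were higher. With the 3-fold rule 3 were higher, since PSPH and SLC1A5 lie below that size. The background of all genes moved more: 308 higher and 256 lower with the floor at the 75th percentile, 358 higher with the floor on both arrays, 1533 and 1150 with the 1.5-fold rule, and 187 and 116 with the 3-fold rule, as those rules take in fewer or more genes by construction. No paired analysis was possible because each line had a single array (n = 1), and no replicate could be left out. The parental levels of PHGDH and SLC1A4 lay near the floor, and the background in them was not measured.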
